A study of Mus musculus with 24 samples.

Results

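The genes described are 10 members of the Wnt/β-catenin pathway, measured in mouse brain endothelial cells: Fzd4, Fzd6, Reck, Lef1, Sox17, Foxf2, Foxq1, Axin2, Apcdd1 and Tnfrsf19. The genes were found by symbol in a gene table of 53465 rows. Each of the 10 symbols matched 1 row. All 10 passed the filter on low counts, as did 15493 genes in all. The filter asked for 5 or more reads in at least 6 libraries of either genotype.

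The cells were sorted with an antibody to CD31, an endothelial surface protein, from the brains of single C57BL/6J mice, and each mouse gave 1 library of total RNA. Control mice were Bmal1fl/fl, and mutant mice were Bmal1fl/fl; Tie2cre, so both genotypes carried the floxed Bmal1 allele (gene Arntl) and only the mutants carried the Cre. The Tie2 promoter drives Cre in endothelium generally and in part of the blood lineage, not in brain endothelium alone. For each genotype 2 mice were taken every 4 h at 6 zeitgeber times (ZT, hours after lights on) of a light-dark cycle, from ZT2 to ZT22, which gave 12 control and 12 mutant libraries. The labels do not give the age of the mice.

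Wnt ligands in the brain are made mostly by neural cells and reach the vessel wall, where Frizzled receptors with LRP co-receptors bind them and stop the breakdown of β-catenin. β-catenin then enters the nucleus and acts with TCF and LEF proteins on target genes, several of which restrain the pathway in turn. In brain endothelium this pathway is known for its part in vessel ingrowth during development and for keeping the blood-brain barrier.

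Total deposited reads ran from 6136404 to 6648311 per library. The 8 libraries of ZT6 and ZT18 stood apart from the other 16. Their sample titles carry a consecutive run of library numbers, and mitochondrial genes took 2.68% to 3.90% of their reads against 5.78% to 17.4% in the others. The summed reads of 9 endothelial markers were 102552 to 107389 in these 8 libraries and 65640 to 95455 in the other 16. The summed reads of 7 microglial markers were 1088 to 1852 against 9932 to 26450, those of 7 astrocyte markers were 4591 to 7553 against 10470 to 20825, and those of 10 pericyte and smooth muscle markers were 15291 to 24666 against 9874 to 19385. No marker of these lists was at 0 in all libraries. The count of Arntl covers the whole gene, of which only a floxed exon is deleted, so it checks the deletion poorly; it had a median of 166.5 reads in controls and 242.5 in mutants. Nr1d1 and Dbp, both driven by BMAL1, had mutant minus control differences of -2.26 and -1.26 on the log2 scale (adjusted p = 0.000659 and 0.0115). Every adjusted p here is from edgeR's quasi-likelihood test with Benjamini-Hochberg adjustment, unless DESeq2 is named.

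The 10 genes were all well expressed and lay close to each other in level. Per kilobase of exon, Fzd6 had the highest mean over the 24 libraries with 339.7 reads and Foxq1 the lowest with 145.9 reads, which put them at the 96.4th and 89.3rd percentile of 15481 genes with a length. The order between them was Fzd4 (303.7 reads per kilobase), Foxf2 (302.1), Tnfrsf19 (292.3), Lef1 (247.2), Apcdd1 (231.2), Sox17 (216.2), Axin2 (206.0) and Reck (180.8). Of the 9 pairs of neighbours in this order, only Tnfrsf19 and Lef1 differed within a library by more than 1 SD of that difference: the log2 ratio per kilobase was 0.24 ± 0.19 (SD, n = 24), and Tnfrsf19 was higher in 22 of 24 libraries. The other 8 pairs of neighbours did not differ beyond their spread.

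**Figure D1:**
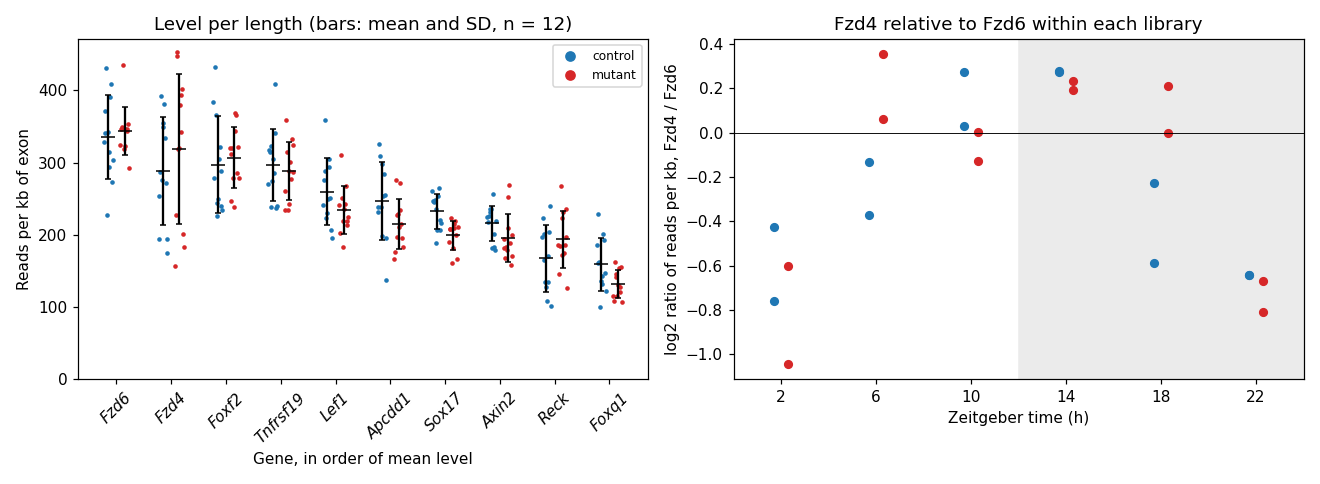
Left, reads per kilobase of exon of each gene in each library, with mean and SD of 12 libraries per genotype; right, the log2 ratio of Fzd4 to Fzd6 in reads per kilobase, by zeitgeber time in hours, 1 point per library, with the dark phase shaded. Levels run from a mean of 339.7 (Fzd6) to 145.9 (Foxq1), and the ratio is below 0 in all 8 libraries of ZT22 and ZT2.

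The clearest pattern among these genes was in Fzd4, the Frizzled receptor for norrin and a receptor of several Wnts. Its reads were low around lights on and high for the rest of the day, in both genotypes. In controls the reads of the mice of ZT22 were 1178 and 1308, those of ZT2 1302 and 1708, those of ZT6 1926 and 2636, those of ZT10 1851 and 2345, those of ZT14 2384 and 2561, and those of ZT18 2246 and 1824. In mutants the mice of ZT22 had 1354 and 1236 reads, those of ZT2 1059 and 1530, those of ZT6 3003 and 3048, those of ZT10 2139 and 2149, those of ZT14 2549 and 2648, and those of ZT18 2303 and 2697. The 8 libraries of ZT22 and ZT2 lay between 1059 and 1708 reads, below each of the other 16, which lay between 1824 and 3048. Of the 10 genes only Fzd4 showed such a gap, and 8 of 15493 genes did (0.0516%); this split of the times was chosen after the values of Fzd4 were seen, so it is a description.

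**Figure D2:**
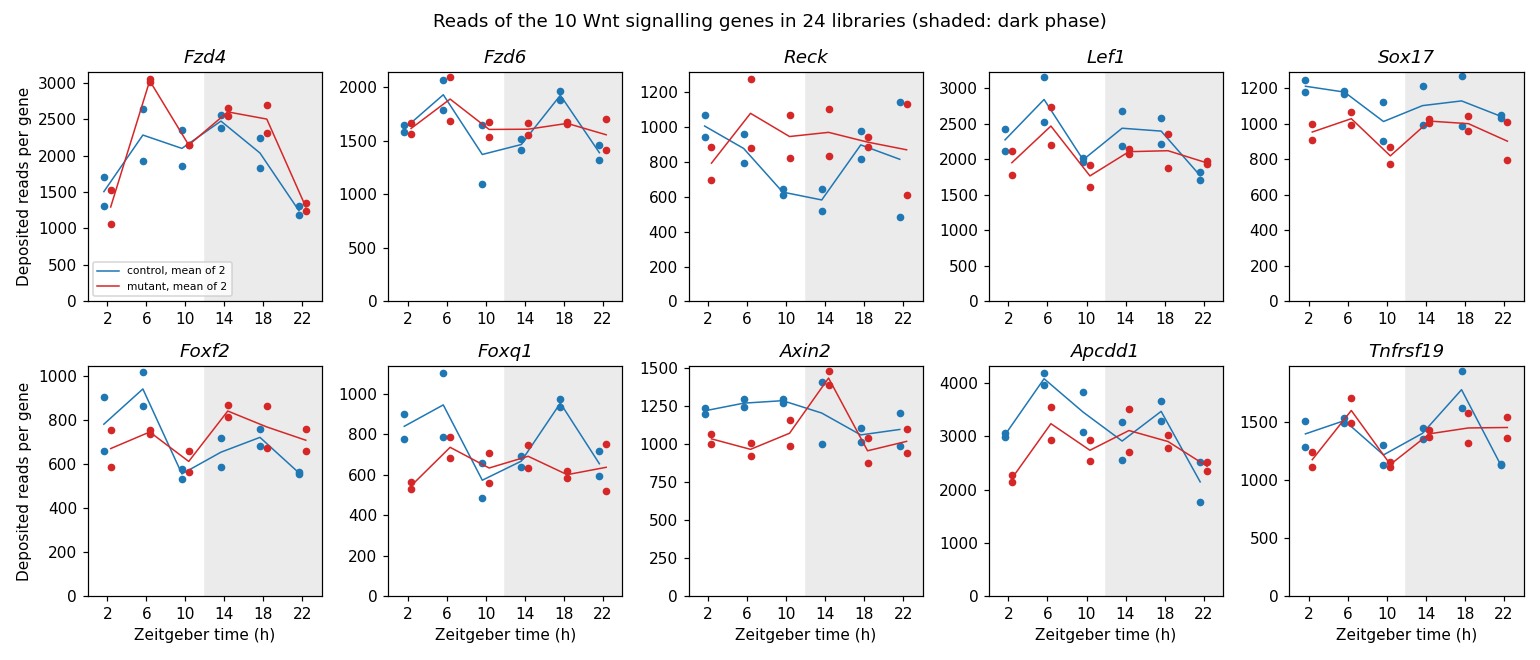
Deposited reads of each of the 10 genes (vertical axis, from 0) at the 6 zeitgeber times in hours, 2 control mice (blue) and 2 mutant mice (red) per time, with lines through the means and the dark phase shaded. Fzd4 is low at ZT22 and ZT2 in both genotypes (1059 to 1708 reads) and at 1824 reads or more elsewhere; the other genes show no such gap.

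A 24-h cosine was fitted to each gene in each genotype. For Fzd4 the amplitude was 0.48 on the log2 scale in controls with the peak at ZT11.7, and 0.52 in mutants with the peak at ZT11.5. Between peak and trough these are changes of 1.94-fold and 2.06-fold. In this fit none of the 10 genes passed in controls, where 0.213% of all genes did, and none passed in mutants, where 0.0516% did; for Fzd4 the unadjusted p was 0.00863 and 0.00645, and the adjusted p was 0.539 and 0.812. The fit puts the difference between the ZT6 and ZT18 libraries and the rest into its error. With a term for that difference, Fzd4 was called in controls (adjusted p = 0.0221, where 0.497% of all genes were called) and in mutants (adjusted p = 0.0270, where 0.200% were), with amplitudes of 0.48 and 0.52; it was the only one of the 10 genes called. In the 16 libraries outside ZT6 and ZT18, an alternative added after the data were seen, Fzd4 was the only one of the 10 called in controls (adjusted p = 0.0433, where 0.458% of all genes were called) and in mutants (adjusted p = 0.0286, where 0.207% were). A permutation of the time points in the cosine fit on log2(reads + 1) gave p = 0.0158 (controls) and p = 0.0505 (mutants); for the JTK rank statistic the permutation p was 0.0341 and 0.414, none adjusted for the number of genes.

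No difference in the daily pattern of Fzd4 between genotypes was detected. The difference vector of the fitted cosines had an amplitude of 0.05 (p = 0.962, adjusted p = 1.00), which lay between 0.0194 (without mutant replicate 1 of ZT22) and 0.149 (without control replicate 2 of ZT6) when 1 library was left out, and none of the 10 genes nor any of the 15493 passed this test (0%). At an unadjusted p under 0.05 there were 660 such genes in all, none of them among the 10, and DESeq2 called 1 gene in all. The edgeR test did not call the clock genes that served as checks either. Arntl, with amplitudes of 2.86 in controls and 0.34 in mutants, had a difference of 2.72 (adjusted p = 0.141). Dbp had one of 0.85 (p = 0.0851) and Nr1d1 one of 0.37 (p = 0.828). The lack of a call for Fzd4 therefore does not show that its pattern is the same in both genotypes.

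To compare times free of the ZT6 and ZT18 libraries, the 8 libraries of ZT22 and ZT2 were set against the 8 of ZT10 and ZT14, again after the pattern had been seen. The endothelial marker score, the mean log2 CPM, CPM being counts scaled to the library total, of the 9 markers, was 9.97 ± 0.16 and 9.91 ± 0.19 (SD, n = 8 libraries each) in these groups, and the score of 50 markers of other cells was 5.81 ± 0.23 and 5.79 ± 0.24. For Fzd4, on which the times were chosen, the fitted log2 difference is given as a description with no test: it was -0.86 (SE 0.11), a level at ZT22 and ZT2 of 0.552 times that of ZT10 and ZT14. It was -0.81 in the 8 control libraries alone and -0.89 in the 8 mutant libraries alone. Apcdd1 had a difference of -0.37 (SE 0.11) and Axin2 one of -0.25 (SE 0.10), also given as descriptions. For the other 7 genes the differences in these 16 libraries lay between -0.11 (Lef1) and 0.15 (Reck), each with a 95% interval that includes 0. With all 24 libraries, ZT22 and ZT2 were set against the other 4 times, so the difference of the ZT6 and ZT18 libraries from the rest, given below, enters the comparison. There Apcdd1 had -0.44, Lef1 -0.23, Tnfrsf19 -0.20 and Axin2 -0.12. No call is made on these values, since the times were chosen on Fzd4. Apcdd1 and Fzd4 had a Pearson r of 0.67 over the 24 libraries.

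The DNA before the start of Fzd4 is shown because it is the gene with the daily pattern. In RefSeq's GRCm38.p6 annotation the 250 bases before its start lie at chr7:89404116-89404365 on the plus strand; the gene itself spans chr7:89404355-89413134 in GENCODE. It was searched on both strands for the E-box CACGTG, to which BMAL1 and CLOCK bind, for the REV-ERB and ROR element AGGTCA, and for the TCF/LEF motifs CTTTGAT and CTTTGAA. None of these letters occurred in this window. Matches would be shown in capitals.
Fzd4: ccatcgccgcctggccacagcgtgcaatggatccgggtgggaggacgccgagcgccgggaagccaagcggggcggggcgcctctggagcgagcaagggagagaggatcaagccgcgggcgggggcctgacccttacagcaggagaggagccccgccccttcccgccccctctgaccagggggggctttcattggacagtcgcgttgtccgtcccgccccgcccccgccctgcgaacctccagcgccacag

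RefSeq promoter windows were searched for 6 of the 10 genes (Fzd4, Reck, Lef1, Foxf2, Axin2 and Tnfrsf19), 10 windows in all. Those of Apcdd1, Sox17, Fzd6 and Foxq1 were not searched, so the matches below say nothing about these genes. Among all 32851 windows of this length, 6.02% hold the E-box, 14.0% hold AGGTCA and 7.48% hold a TCF/LEF motif. AGGTCA occurred in none of the 10. Matches to the E-box or TCF/LEF motifs occurred in 2 windows, both before alternative starts inside the gene: that of Lef1 at chr3:131156044-131156293 on the plus strand with an E-box starting 79 bases before the start, and that of Tnfrsf19 at chr14:61037988-61038237 on the minus strand with an E-box at 133 bases and a TCF/LEF motif (ATCAAAG, the reverse complement of CTTTGAT) at 202 bases. They are printed because they are the matches, shown in capitals; a match of letters is not a binding site.
Lef1: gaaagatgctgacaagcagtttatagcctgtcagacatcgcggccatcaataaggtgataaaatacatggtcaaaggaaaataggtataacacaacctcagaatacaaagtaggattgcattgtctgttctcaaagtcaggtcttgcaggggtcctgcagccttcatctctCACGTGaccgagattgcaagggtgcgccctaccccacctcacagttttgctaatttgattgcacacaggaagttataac
Tnfrsf19: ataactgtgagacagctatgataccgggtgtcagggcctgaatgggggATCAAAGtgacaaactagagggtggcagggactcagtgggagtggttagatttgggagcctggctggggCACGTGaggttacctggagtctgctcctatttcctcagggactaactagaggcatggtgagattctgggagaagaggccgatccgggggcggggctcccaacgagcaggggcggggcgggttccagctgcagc

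Fzd6, the other main Frizzled receptor of these cells, had cosine amplitudes of 0.01 in controls and 0.07 in mutants, with unadjusted p = 0.996 and 0.709. ZT6 and ZT18, where its reads were higher than at the other times, lie at opposite points of a 24-h cosine and cancel in this fit. The log2 ratio of Fzd4 to Fzd6 per kilobase was -0.70 ± 0.18 (SD) in the 8 libraries of ZT22 and ZT2 and 0.03 ± 0.26 in the other 16. Reck, a membrane protein that with the adhesion receptor Adgra2 presents WNT7 to Frizzled, had a control amplitude of 0.29 with the peak at ZT0.302 (p = 0.0969) and a mutant amplitude of 0.14 (p = 0.555). Its test of a genotype difference in the cosine had the lowest p of the 10 genes (amplitude 0.42, p = 0.0899, adjusted p = 1.00). Its 2 control mice had 644 and 609 reads at ZT10 and 518 and 645 at ZT14, where the mutant mice had 1068 and 822, and 1105 and 833. Both mutants were above both controls at these 2 times and below them at 1 other, and the remaining 3 times overlapped.

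Apcdd1, a membrane-bound Wnt inhibitor that is itself a target of the pathway, had the next lowest p in controls with an amplitude of 0.28 and a peak at ZT9.60 (p = 0.0518), and in mutants an amplitude of 0.20 with a peak at ZT11.8 (p = 0.186). Axin2, a scaffold of the β-catenin breakdown complex and the best known feedback target, had amplitudes of 0.15 (ZT9.17, p = 0.192) and 0.19 (ZT13.4, p = 0.0601). Without control replicate 1 of ZT22 the control amplitude of Apcdd1 was 0.17, and without mutant replicate 2 of ZT14 the mutant amplitude of Axin2 was 0.12. For the other 6 genes, Fzd6 included, the amplitudes lay between 0.01 and 0.15 in controls and between 0.02 and 0.12 in mutants. Their lowest unadjusted p was 0.355 (Foxf2 in controls).

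None of the 10 genes passed the test of a difference in level between genotypes, where 0.271% of all genes did. The question here was whether loss of Bmal1 in the endothelium moves the level of the pathway's genes, time of day set aside. The median of the 10 fitted log2 differences was -0.09, against 0.00 over all genes tested, with 6 genes below 0 and 4 above. At an unadjusted p under 0.05 there were 4 of the 10 genes, all lower in mutants, and 6.95% of all genes. In bulk RNA, fewer cells of a type and less RNA per cell cannot be told apart, here or below.

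Sox17, a transcription factor of arterial and barrier endothelium that acts with β-catenin, was the gene of lowest p. Its reads ran from 900 to 1266 in the 12 controls with a median of 1146, and from 770 to 1063 in the 12 mutants with a median of 993.5. The 2 ranges overlapped, but both mutants were below both controls at 4 of the 6 times and at no time were they above. The fitted difference was -0.23 (SE 0.07, 95% interval -0.37 to -0.09, p = 0.00237, adjusted p = 0.270). With DESeq2 the adjusted p was 0.0501, and over the alternatives tried in all 24 libraries it lay between that value and 0.642.

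Foxq1, a forkhead factor of brain endothelium, had 487 to 1106 reads in controls (median 747) and 520 to 787 in mutants (median 626), with a fitted difference of -0.25 (95% interval -0.45 to -0.05, p = 0.0167, adjusted p = 0.554). Apcdd1 had 1765 to 4197 reads in controls (median 3175.5) and 2147 to 3550 in mutants (median 2747), with a difference of -0.19 (95% interval -0.35 to -0.02, p = 0.0296, adjusted p = 0.636). Axin2 had 988 to 1410 reads in controls (median 1220.5) and 873 to 1481 in mutants (median 1023), with a difference of -0.15 (95% interval -0.30 to -0.00, p = 0.0457, adjusted p = 0.701). In all 3 genes the ranges of the genotypes overlapped. Both Apcdd1 values of the mutants were below both of the controls at 4 times, those of Axin2 at 3 times and those of Foxq1 at 2, and none of the 3 genes had a time with the mutants above. The i5 index of the libraries was tied in part to genotype, with 8 of 12 controls on the first index and 8 of 12 mutants on the second. With it as a covariate the difference of Apcdd1 was -0.09 (p = 0.350) and that of Axin2 -0.11 (p = 0.215). The difference of Sox17 was then -0.19 (p = 0.0316) and that of Foxq1 -0.27 (p = 0.0367). That of Foxq1 was -0.40 with the endothelial marker score as a covariate (adjusted p = 0.153), and lay at -0.49 within ZT6 and ZT18 and -0.14 within the other 4 times.

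The other 6 genes had an unadjusted p above 0.05. Reck had a difference of 0.23 (95% interval -0.02 to 0.49, p = 0.0748), which was 0.08 with the score of the markers of other cells as a covariate and 0.02 with the endothelial score. Among the Frizzled receptors, Fzd4 had a difference of 0.11 (-0.06 to 0.28, p = 0.213) and Fzd6 one of 0.05 (-0.10 to 0.19, p = 0.534). Lef1, the TCF/LEF family's member with the highest level here, had 1715 to 3153 reads in controls and 1610 to 2732 in mutants, with a difference of -0.14 (-0.29 to 0.01, p = 0.0643). Foxf2, a forkhead factor also known from pericytes, had one of 0.06 (-0.12 to 0.24) and Tnfrsf19, a TNF receptor family member induced by β-catenin and also called Troy, one of -0.04 (-0.19 to 0.12). The intervals of all 10 genes lie within -0.45 and 0.49, so larger changes than these lie outside each of them.

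**Figure D3:**
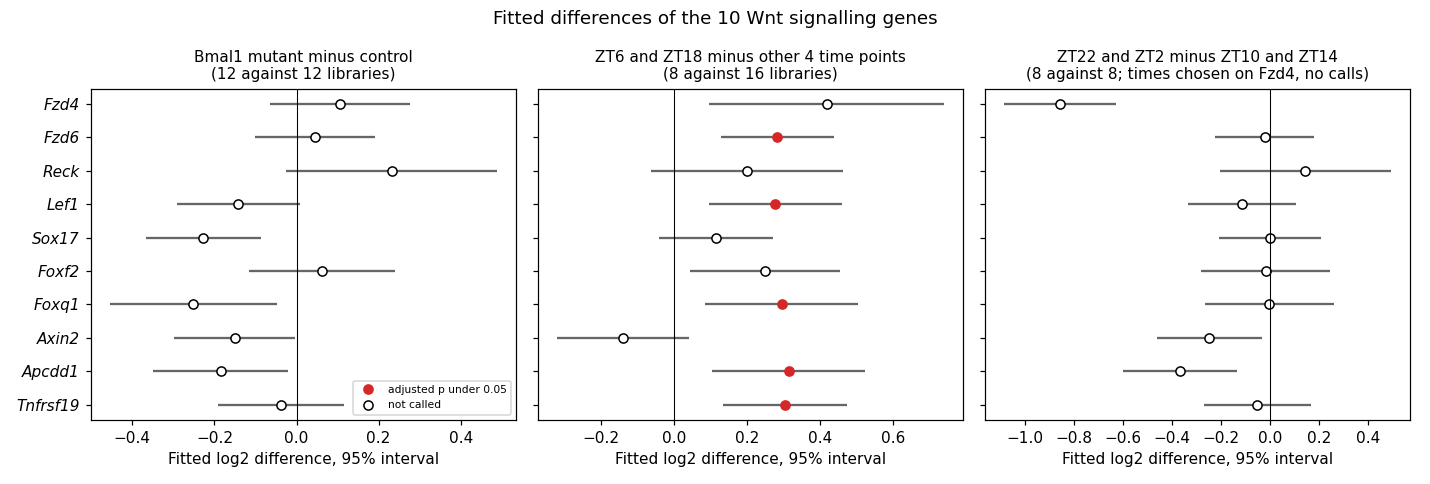
Fitted log2 difference of each of the 10 genes with its 95% interval, for mutant minus control, ZT6 and ZT18 minus the other 4 times, and ZT22 and ZT2 minus ZT10 and ZT14; filled points have an adjusted p under 0.05, and the horizontal axes differ in range. There is no filled point for genotype and there are 5 for ZT6 and ZT18; in the right panel, where the times were chosen on Fzd4 (at -0.86), no point is marked as called.

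The genotype difference of Fzd4 was fitted in each of the 2 sets of libraries, and the difference between the sets did not pass the test. It was 0.38 within ZT6 and ZT18 (unadjusted p = 0.00464, adjusted p = 0.609, 4 against 4 libraries, edgeR) and -0.04 within the other 4 times (p = 0.714). At ZT6 both mutants, with 3003 and 3048 reads, were above both controls, with 1926 and 2636. So were both mutants of ZT18, with 2303 and 2697 reads against 2246 and 1824. At the other 4 times the genotypes overlapped. The test of the difference between these differences gave 0.41 (SE 0.16, p = 0.0161, adjusted p = 1.00). None of the 10 genes and none of all genes passed it (0%), with 678 of 15493 genes at an unadjusted p under 0.05, 1 of the 10 among them, and 1 gene called by DESeq2.

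In the libraries of ZT6 and ZT18, 5 of the 10 genes were higher than at the other 4 times: Fzd6, Tnfrsf19, Lef1, Apcdd1 and Foxq1. Over all genes 5.85% were called higher. The median difference of the 10 genes was 0.28, against -0.01 over all genes. As given above, endothelial markers and those of pericytes and smooth muscle were also higher in these 8 libraries, and microglial and astrocyte markers were lower. Time of day and library series cannot be told apart.

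Fzd6 had 1655 to 2095 reads in the 8 libraries (median 1837.5) and 1097 to 1703 in the other 16 (median 1559.5), a difference of 0.28 (SE 0.08, adjusted p = 0.00725). Tnfrsf19 had 1316 to 1935 reads (median 1552) against 1108 to 1539 (median 1291), a difference of 0.30 (SE 0.08, adjusted p = 0.00905). Lef1 had 1883 to 3153 reads (median 2444) against 1610 to 2684 (median 1997), a difference of 0.28 (SE 0.09, adjusted p = 0.0285). The groups overlapped slightly in Fzd6 and widely in Lef1. Apcdd1 had 2780 to 4197 reads (median 3416) against 1765 to 3841 (median 2632.5), a difference of 0.31 (SE 0.10, adjusted p = 0.0307). Foxq1 had 584 to 1106 reads (median 786.5) against 487 to 902 (median 649.5), a difference of 0.30 (SE 0.10, adjusted p = 0.0448). Its 3 highest values were those of control mice, and leaving out any of 12 libraries took its adjusted p above 0.05.

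The endothelial marker score itself was 10.4 ± 0.06 (SD, n = 8 libraries) at ZT6 and ZT18 and 9.94 ± 0.17 (n = 16) at the other times. With this score as a covariate, an alternative added after the data were seen, none of the 10 genes was called. Of all 15493 genes 38 were called higher there, against 907 without a covariate. With the score Fzd6 had a difference of 0.00, Tnfrsf19 one of 0.07, Lef1 one of 0.11, Apcdd1 one of 0.25 and Foxq1 one of -0.12. With the score of the markers of other cells as a covariate none was called either, and only 1 of all 15493 genes was called higher. With SEs of 0.25 to 0.33, the differences of Lef1 (0.43), Tnfrsf19 (0.44) and Apcdd1 (0.32) were no smaller than before. Those of Fzd6 (0.15) and Foxq1 (0.00719) were smaller. Both scores separate the 8 libraries from the 16 without overlap, so score and library series can hardly be told apart. All 8 libraries of ZT6 and ZT18 carry the first i5 index, as do 4 of the other 16. With the index as a covariate none of the 10 genes was called, and 191 of all 15493 genes were called higher. Fzd6 had 0.34, Tnfrsf19 0.34, Lef1 0.32, Foxq1 0.36 and Apcdd1 0.17, with SEs of 0.12 to 0.16. In controls alone none was called at differences of 0.29 (Lef1) to 0.46 (Foxq1) in these 5 genes. Of all 15493 genes 209 were called higher there. In mutants alone the 5 had 0.13 (Foxq1) to 0.28 and only Fzd4 was called (0.63, adjusted p = 0.0472). Of all genes 402 were called higher in mutants alone.

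The other 5 genes did not pass. Fzd4 had a difference of 0.42 (adjusted p = 0.0674), Foxf2 one of 0.25 (adjusted p = 0.0940), Reck one of 0.20 (adjusted p = 0.355) and Sox17 one of 0.12 (adjusted p = 0.377). Axin2 was the only gene of the 10 with a negative difference, -0.14 (95% interval -0.32 to 0.04, adjusted p = 0.347). It had 873 to 1296 reads at ZT6 and ZT18 against 938 to 1481 at the other times.

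**Figure D4:**
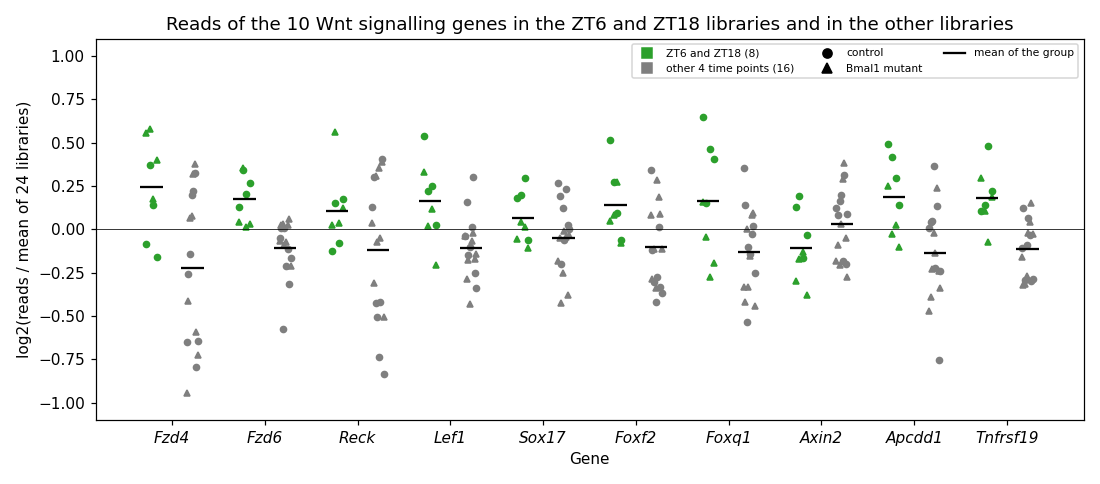
log2 of each gene's reads over its mean of 24 libraries, for the 8 libraries of ZT6 and ZT18 (green) and the other 16 (grey), with circles for controls, triangles for mutants and bars for group means. The green means are above the grey ones in 9 genes and below in Axin2, and in every gene the groups overlap.

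Other genes of or near the pathway were taken from a list of 103 names, of which 102 were in the table and 74 passed the filter. Of the pathway's own parts these were 6 of 20 ligands, 3 of 3 genes of ligand secretion and 12 of 15 receptors and co-receptors. There were also 5 of 9 genes of the R-spondin arm, 8 of 16 inhibitors, all 16 genes of the cytoplasmic steps and all 12 of the nuclear steps. The last 12 were β-catenin responsive or partner genes of brain endothelium, such as Slc2a1, Cldn5 and Abcb1a, rather than steps of the pathway. None of the 74 passed for genotype, for rhythm in either genotype, for the genotype difference in rhythm or for the genotype difference between the library sets. Unadjusted p under 0.05 was reached by 11, 7, 7, 3 and 3 of them, or 14.9%, 9.46%, 9.46%, 4.05% and 4.05%, against 6.95%, 5.90%, 4.17%, 4.26% and 4.38% of all genes. Of the 11 for genotype, 5 were among the 12 β-catenin responsive or partner genes. For genotype the smallest p belonged to Itih5, a matrix-binding protein (-0.34, adjusted p = 0.0795), Sox18, a relative of Sox17 (0.35, adjusted p = 0.374), and Spock2, a matrix proteoglycan (-0.21, adjusted p = 0.496). For rhythm in controls they were the co-repressors Tle1 (amplitude 0.34, peak ZT13.8, adjusted p = 0.199) and Tle4 (0.45, ZT13.9, adjusted p = 0.437), and Sox18 (0.41, ZT1.76, adjusted p = 0.437). For rhythm in mutants they were the glucose transporter Slc2a1 (0.50, ZT13.4, adjusted p = 0.548), the inhibitor Dkk2 (1.24, ZT21.0, adjusted p = 1.00) and the receptor Fzd1 (0.78, ZT15.2, adjusted p = 1.00). For the difference in rhythm they were Sox18 (0.66, p = 0.00130), the tight junction gene Cldn5 (0.49, p = 0.0317) and Fzd1 (0.89, p = 0.0405). For the genotype difference between the library sets they were Sostdc1 (-1.77, p = 0.00676), Sfrp1 (-2.38, p = 0.0238) and Wnt2b (4.52, p = 0.0261), 3 genes with a mean under 100 reads.

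In the libraries of ZT6 and ZT18, 12 of the 74 genes were called, 10 higher and 2 lower. This is 16.2% of them, close to the 16.7% called over all genes in either direction. Of the 10 higher genes, 4 were β-catenin responsive or partner genes. The balance of directions differed: of all 15493 genes 907 (5.85%) were called higher and 1688 lower. This difference in balance was not tested. The 6 of smallest p were Sostdc1, a secreted inhibitor abundant in choroid plexus (-2.19), Plvap, a component of fenestrated endothelium (0.92), the efflux transporter Abcb1a (0.35), the SOX factor Sox7 (0.51), Tspan12, a partner of Fzd4 in norrin signalling (0.51), and β-catenin itself, Ctnnb1 (0.32). Both lower genes, Sostdc1 and Sfrp5, are secreted inhibitors. The summed reads of 4 choroid plexus and ependymal markers were 1772 to 6833 at ZT6 and ZT18 and 2826 to 63535 at the other times, and their part in the result was not tested. The 74 genes were also compared between ZT22 with ZT2 and ZT10 with ZT14. These times were chosen after the values of Fzd4 were seen, so the values are descriptions and no call is made. The 3 genes of smallest p were Slc2a1 (-0.81), Itih5 (-0.46) and Tle1 (-0.46), all lower at ZT22 and ZT2.

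Across libraries the 10 genes moved together only in part. Over the 45 pairs the median Pearson r of log2 CPM was 0.44 in the 24 libraries and 0.35 in the 16 outside ZT6 and ZT18. An r over 0.5 was found in 13 pairs and 6 pairs. The highest in the 24 libraries was that of Lef1 and Tnfrsf19 (0.69; 0.70 in the 16), and all 5 pairs below 0 involved Reck or Axin2, down to -0.23 between Axin2 and Reck. In the 16 libraries Apcdd1, Axin2 and Fzd4 correlated with each other at 0.80, 0.73 and 0.68. These are descriptions, since the libraries share cell content and time of day. The endothelial marker score had an r of 0.82 with Fzd6 in the 24 libraries and of 0.74 in the 16, and of 0.41 and 0.04 with Fzd4.

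Among 9896 genes with a mean of 50 reads or more, those most like Fzd4 over the 24 libraries were Bcl2l1, an anti-apoptotic gene (r = 0.89), Rgs12 (0.87) and Tsc22d3, a glucocorticoid-induced gene (0.87); in the 16 libraries outside ZT6 and ZT18 their r was 0.94, 0.91 and 0.86. For Lef1 they were Map3k1, Alas1 and Magi3 (0.81 to 0.85), for Apcdd1 Proser2, Itih5 and Ly75 (0.81 to 0.84), and for Tnfrsf19 Ctla2a, Abcb1a and Zfas1 (0.82 to 0.83). For Sox17 they were Gkn3, Gstm1 and Notum (0.69 to 0.73), for Axin2 Myrip, Atp5d and Abca2 (0.68 to 0.73), and for Foxq1 Slc30a1, Pam and Dll4 (0.71 to 0.72). For Fzd6 they were Ackr3, Pcp4l1 and Esyt2 (0.79 to 0.80), for Reck Map4k5, Piezo1 and Fstl1 (0.75 to 0.79), and for Foxf2 Itpkb, Rasip1 and Flt4 (0.75 to 0.81). Apart from those of Fzd4, the r of these pairs in the 16 libraries ran from 0.49 (Slc30a1 with Foxq1) to 0.90 (Alas1 with Lef1).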

How the data were processed

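Total RNA of CD31-sorted brain endothelial cells from 24 mice was made into libraries with a strand-specific kit. Per the labels and the study's methods, the authors aligned reads to GRCm38 with STAR 2.5.3a, merged lanes with SAMtools 1.3.1, and used PORT with Ensembl gene models to normalize and quantify; the deposited values are whole-number counts of normalized reads per gene. They were used as counts here. The total per library bounds the precision, and normalization had already brought the totals close to each other.

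Genes with 5 or more reads in 6 libraries of either genotype were kept, the study's own filter. edgeR 4.0.16 in R 4.3.3 (TMM factors, glmQLFit, glmQLFTest) was fitted to all 15493 genes with Benjamini-Hochberg adjustment over them, and a gene was called at an adjusted p under 0.05. The models were time of day plus genotype; genotype plus a 24-h cosine for each genotype; genotype plus ZT6 and ZT18 against the rest; time, genotype and their interaction with ZT6 and ZT18; and, added after the data were seen, ZT22 and ZT2 against ZT10 and ZT14 (as an alternative, against the other 4 times). DESeq2 1.42.0, other filters, no TMM factor, covariates and left-out libraries were alternatives. For 2-df tests the amplitude and peak come from the fitted coefficients. The authors' cycling test combines JTK and Lomb-Scargle; it was not run here, and a JTK rank statistic with 100000 permutations stood in. The scripts were tested on simulated data. Exon lengths and positions are from GENCODE for GRCm38, promoters from RefSeq.

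Genes named are all 10 and the 3 genes most correlated with each of the 10. Of the other pathway genes, the called ones are named, at most the 6 of smallest p. Where none was called, the 3 of smallest p are named. Outside this rule, Sfrp5 is named as the other lower gene, Tcf7 and Axin1 for the family shares, and Adgra2 as a partner of Reck. The Wnt genes and all lists were chosen with earlier results of these data known. The 3 clock genes Arntl, Nr1d1 and Dbp served as checks. Replicates are separate mice.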

Additional observations from a re-analysis of the deposited data

Results flagged for a closer look

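For each of the 10 genes, the 8 libraries of ZT6 and ZT18, of ZT22 and ZT2, and of ZT10 and ZT14 were searched for a library far from its group, which made 30 groups of 8. In 2 of them the gap of the highest or lowest library to its neighbour was too large a part of the group's range. Reck had 1276 reads in mutant replicate 2 of ZT6, with a gap of 0.619 of the range, and Fzd6 had 1097 reads in control replicate 1 of ZT10, with a gap of 0.552; the limit is 0.526. Chance flags about 1 group in 20.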

How the results depend on the processing

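For genotype, for the genotype difference in rhythm and for the genotype difference between the library sets, 0 of the 10 genes were called in every alternative run. For rhythm in controls and in mutants, 1 gene, Fzd4, was called with no filter, with a series term and with the endothelial score. It was also called in the 16 libraries without ZT6 and ZT18, and 0 of the 10 genes were called in the rest. Over all genes, 199 (controls) and 75 (mutants) of 25174 were called with no filter, and 85 and 35 of 15493 with the endothelial score. For ZT6 and ZT18 the 5 genes became 7 without TMM factors (Fzd4 and Foxf2 added) and 6 with no filter (Fzd4 added). With 10 reads asked of every library they became 2. Over all genes the higher calls were 907 of 15493, against 1170 without TMM factors. They were 1077 of 25174 with no filter and 656 of 9863 with 10 reads in every library. Of the 10 genes 0 were called with the i5 index, either marker score or controls alone (where several differences stayed as large, with wider errors). With mutants alone 1 (Fzd4) was called. Leaving out a library gave 2 to 6, the 2 without control or mutant replicate 1 of ZT6. For ZT22 and ZT2 the value of Fzd4 lay between -0.92 and -0.82 when any of 16 libraries was left out. The cause of these changes was not tested.

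Signs turned in some differences. For genotype, Fzd4 was -0.0361 in the other 4 times alone; Fzd6 was -0.000675 with the i5 index, -0.0971 in ZT6 and ZT18 alone and -0.0449 with the endothelial score; Tnfrsf19 was 0.02 with the i5 index; Foxf2 was -0.0983 in ZT6 and ZT18 alone and -0.0115 with the endothelial score. For ZT6 and ZT18, Axin2 was 0.0473 and Reck -0.75 with the score of other cells; with the endothelial score Sox17 was -0.0764, Reck -0.29, Foxf2 -0.11 and Foxq1 -0.12. None of these was called in that alternative, but Foxq1 was called before it.

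Over all genes the calls were 42 for genotype against 99 by DESeq2, 141 unfiltered, 25 to 68 without 1 library, 7 with the i5 index, 16 and 22 with the endothelial and other marker score, and 3 and 28 within the library sets. They were 33 for rhythm in controls against 9 (without 1 library) to 199 unfiltered, 8 in mutants against 0 in mutants alone to 75 unfiltered, and 0 for the difference against up to 52 unfiltered. For ZT6 and ZT18 they were 2595 against 130 (other marker score) to 2979 (unfiltered), and for ZT22 and ZT2 102 against 20 (mutants alone) to 195 (unfiltered). For the genotype difference between the library sets they were 0 against up to 18 unfiltered.

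Replicate numbers did not pair the mice: same-numbered mice of the 2 genotypes had correlations of -0.00570 to 0.0218 over all genes and -0.0158 to 0.101 over genes with a mean of 50 reads or more, over 0.1 in ZT14 only. A replicate block left 0, 0, 0, 0, 5 and 0 of the 10 genes called in the order of genotype, rhythm in controls, in mutants, its difference, ZT6 and ZT18, and the library sets; it moved the calls over all genes for genotype from 42 to 43. With 2 mice per time and genotype, small rhythms may pass unseen.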

Other observations

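The share of each gene in its family's reads per kilobase differed between families. Fzd4 and Fzd6 together held 90.5% ± 1.77 (SD, n = 24 libraries) of the Frizzled reads per kilobase, with a range of 86.8% to 93.0%. Lef1 held 49.7% ± 4.45 (SD, n = 12) of the TCF and LEF reads per kilobase in controls and 48.3% ± 3.61 in mutants, with Tcf7 second at 37.4% ± 5.24 and 36.6% ± 4.38. Axin2 held 76.4% ± 5.39 of the Axin1 and Axin2 reads in controls and 74.7% ± 4.03 in mutants. Of the 3 endothelial SOX factors, Sox17 held 27.1% ± 4.05 in controls and 20.3% ± 2.72 in mutants, and Sox18 held 55.9% ± 6.20 and 62.8% ± 6.18. These shares were looked at after the genotype differences of Sox17 and Sox18 were known, and no test was made on them.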
